A study of Rattus norvegicus with 9 samples.

Results

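The genes described here are the collagen chains other than those of collagen IV, together with enzymes, chaperones and proteases that process collagen. They were chosen by name: every gene with a probe set of 1 gene symbol that named a collagen chain, Col4a1 to Col4a6 excepted, and Plod1, Plod2, Plod3, P3h1, P4ha2, P4ha3, P4hb, Serpinh1, Pcolce and Bmp1. This gave 46 genes on 64 probe sets, 36 collagen chains and 10 processing genes, of 14217 genes with 1 symbol on 20826 probe sets. Total RNA of untreated Sprague-Dawley rat embryos at embryonic day 13 was measured on 9 single-colour arrays. The ureteric bud (UB), the outgrowth that branches into the collecting system of the kidney, was freed from the embryonic kidney with a light trypsin digestion and pooled at about 100 buds a replicate. The Wolffian duct (WD), the epithelial tube from which the bud arises, was isolated without digestion and pooled at about 100 ducts. The duct with the mesodermal cells that adhere to it (WD with mesoderm) was pooled at about 50. Each tissue has 3 arrays that the labels call biological replicates. No agent or altered allele is named for any group, and since only the UB was digested, digestion and tissue cannot be told apart.

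Collagens are secreted proteins whose chains wind into a helix of repeated glycine triplets. Fibrillar collagens (I, II, III, V and XI) assemble into the fibrils of connective tissue, and collagens IX, XII, XIV and XVI belong to the fibril-associated group that sits on fibril surfaces. Collagen VI forms beaded microfilaments, collagen VII anchors epithelium to the tissue beneath it, collagen VIII builds short-chain networks, and XV and XVIII carry heparan or chondroitin sulfate and border basement membranes. Inside the cell prolyl and lysyl hydroxylases modify the chains and the chaperone Serpinh1 (HSP47) binds the helix. Outside it Bmp1 removes the C-terminal propeptide of fibrillar procollagens, and Pcolce enhances that cleavage. In the embryonic kidney interstitial collagens are known mainly as products of mesenchyme.

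Of the 46 genes, 37 passed a filter for tests, which asked for a signal above the 40th percentile of its array on at least 3 of the 9 arrays. All 10 processing genes and 27 collagen chains passed. The 9 chains that did not were Col11a2, Col5a3, Col19a1, Col20a1, Col6a5, Col6a6, Col10a1, Col8a1 and Col17a1. Their signals ran from 8.46 to 567 intensity units over all arrays. Of the 37 genes tested, 25 were above the percentile on all 9 arrays. Col14a1, Col6a3, Col7a1 and P4ha3 were above it on 0 of the UB arrays, and Col9a1 and Col24a1 were above it on 0 of the WD arrays. These 6 genes passed only through the other tissues, so their differences from the weak tissue are a description. No detection calls were used, and a weak signal cannot be told from background here.

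The markers of the labelled tissues were present. The summed signal of 11 duct epithelial genes was 224254 to 245007 on the UB arrays, 237295 to 258255 on the WD arrays and 73742 to 113983 on those of WD with mesoderm. That of 12 mesenchymal genes was 8578 to 10496, 34310 to 43346 and 86100 to 91803 in the same order, with the WD between the other tissues. Of the markers of 9 cell types, none was below 46 units on all arrays. The bioC signal, from a spiked bacterial control, was 3.02 to 3.07 times that of bioB for UB and 3.03 times for the third array of WD with mesoderm, but 0.751 to 0.941 times for the 5 remaining arrays. Array medians were 534 to 626 for UB, 778 to 862 for WD and 644 to 897 units for WD with mesoderm. Precision is limited by having 3 arrays a tissue.

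Most interstitial collagens had less signal in the UB than the WD, while Col9a1 and Col9a3 of collagen IX had more. Of the 37 genes tested, 27 fell and 3 rose (Col9a1, Col9a3 and Plod2), and 7 did not pass the test (limma, adjusted p under 0.05 over all probe sets). Counted here are Col14a1, Col6a3, Col7a1 and P4ha3 among the falls and Col9a1 among the rises, which passed the filter only through other tissues. Here and in every later count their difference from the weak tissue is a description. Over all 10802 genes tested 33.0% were called, 19.6% lower and 13.3% higher. The median log2 difference, UB minus WD, was -1.29 over the 37 genes and -0.08 over all genes. The 3 UB arrays lay wholly below the 3 WD arrays for 28 of the 37 genes and wholly above them for 4, against 29.7% and 22.1% of all genes, 51.8% in all. Summed mesenchymal and epithelial markers are given above. Of 11 duct epithelial markers tested 4 were lower in the UB (Krt8, Krt18, Krt19 and Cdh16) and 2 higher (Ret and Lhx1), with a median of -0.15. Of 11 mesenchymal markers tested 7 were lower and 1 higher in the UB, with a median of -1.60. Markers of other cell types also moved. All 5 mesothelial markers tested were lower in the UB (median -4.13), as were 4 of 6 red cell (-2.51), 5 of 7 macrophage (-1.38), 4 of 5 smooth muscle (-1.30) and 4 of 9 endothelial markers (-0.91). Pdgfrb, Osr2, Bnc1, Bnc2, Tagln, Pecam1, Tek and Emcn were below the 40th percentile on every UB array. So were Alas2, Ahsp, Slc4a1, Lyz2, Cd14 and Ctss, while Meox1 was below it on every WD array. These markers passed the filter only through other tissues, so their differences from the weak tissue are a description. The summed mesothelial signal of 7 genes was 3833 to 4578 in the UB and 38089 to 46044 in the WD, and that of 6 red cell genes 3147 to 7902 and 76777 to 125932. Fewer cells of a type in a pool and less RNA per cell cannot be told apart in such bulk samples, and the part of these cell types in the collagen differences was not tested.

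The chains of the classical fibrils showed the widest range. Col1a1, the α1 chain of collagen I, had signals of 352, 297 and 263 on the UB arrays, 8246, 6673 and 10370 on the WD arrays and 26810, 27996 and 22267 on those of WD with mesoderm. The 3 tissues did not overlap, and the mean in the WD was 27.7 times that in the UB. On UB replicate 3 Col1a1 was below the 40th percentile of the array, so this is not an exact fold. Col1a2, the α2 chain of the same collagen, had 3185, 2969 and 2218 in the UB, 14449, 6616 and 14441 in the WD and 51760, 47226 and 36578 in the WD with mesoderm. The order was the same, with a mean in the WD 4.24 times that in the UB. Col3a1, which forms homotrimeric fibrils, had 2290, 2912 and 1553 in the UB and 65381, 48107 and 62628 in the WD. Its UB arrays were all far below its WD arrays.

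The regulatory chains that set fibril diameter also fell. Col5a2 was at 790, 1176 and 839 in the UB and 17096, 17420 and 11951 in the WD, a log2 difference of -3.99 ± 0.19 (SE). Col5a1 was at 1617, 1684 and 1762 in the UB and 5069, 4701 and 4920 in the WD, and differed by -1.51 ± 0.13. Both tested chains of collagen V were therefore below the WD on every UB array, Col5a2 by the wider margin, while Col5a3 was below the filter. Col11a1, which copolymerises with collagens II and V, fell by 2.86 ± 0.19 on the log2 scale, with means of 5715 ± 1103 (SD, n = 3) in the WD and 746 ± 104 (SD, n = 3) in the UB. Col2a1, the main fibrillar collagen of cartilage, differed by -0.72 ± 0.18 (limma adjusted p = 0.00992), but its other 2 probe sets were not called (-0.78 and -0.73). Col24a1 (0.18 ± 0.36) and Col27a1 (0.08 ± 0.25), fibrillar collagens with short helices, did not pass. Of 9 fibrillar chains tested, 7 fell and 0 rose.

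The stretches before the annotated starts of a chain of collagen I and one of collagen XI, members that fell together, are shown with the CCAAT box, the GC box GGGCGG and TATAAA in capitals, searched on both strands. The sequences are RefSeq's of build GRCr8, where 36 of the 46 genes had 39 windows. The 10 genes not matched were Bmp1, Col12a1, Col14a1, Col1a1, Col22a1, Col25a1, Col2a1, Col3a1, Col6a2 and Col9a3.
Col1a2, chr4:33518307-33518406, plus strand, bases 250 to 151 before the start: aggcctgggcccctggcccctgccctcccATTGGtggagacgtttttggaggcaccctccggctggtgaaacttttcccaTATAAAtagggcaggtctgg
Col11a1, chr2:204509016-204509135, plus strand, bases 120 to 1 before the start: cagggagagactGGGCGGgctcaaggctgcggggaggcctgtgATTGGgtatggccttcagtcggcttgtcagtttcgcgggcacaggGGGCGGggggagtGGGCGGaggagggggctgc
In both, the CCAAT letters lie on the minus strand and so read ATTGG. The annotated start of Col1a2 opens with ATG, so its distances are counted from the first codon. Over the 250 bases before the start, CCAAT was found in 10 of the 39 windows (25.6%) against 34.0% of all 33469 windows. GGGCGG was found in 24 (61.5%) against 30.5%, and TATAAA in 4 (10.3%) against 12.9%. Windows of a gene can overlap, and these are letter matches only.

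**Figure D1:**
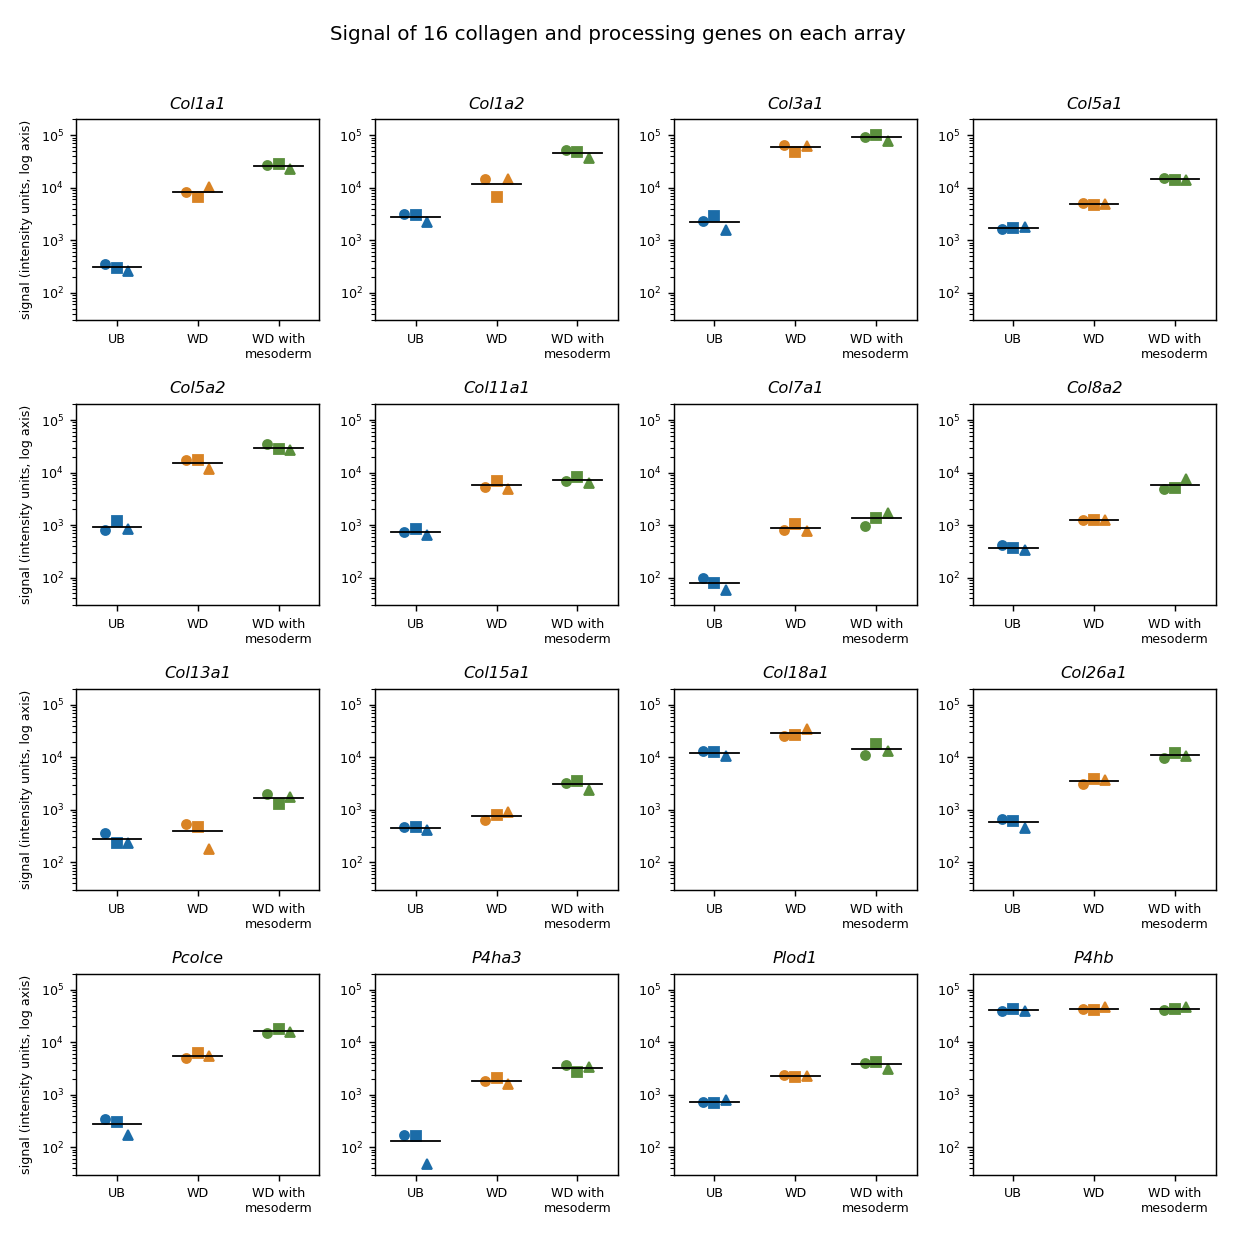
Signal in intensity units (log axis, the same range in all panels) of 16 collagen and processing genes in UB, WD and WD with mesoderm. Points are arrays (circle, square and triangle for replicates 1, 2 and 3) and lines are means. Col1a1 rises over the 3 tissues in that order without overlap, from a mean of 304 in the UB to 25691 in the WD with mesoderm, while Col18a1 is highest in the WD and P4hb lies between 39435 and 47567 on all arrays.

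Among the fibril-associated collagens, Col12a1, Col14a1 and Col16a1 fell and 2 of the 3 chains of collagen IX, Col9a1 and Col9a3, rose. Col16a1 had 623, 690 and 785 in the UB and 4208, 3876 and 4763 in the WD, with no overlap and a log2 difference of -2.54 ± 0.16. Col14a1 differed by -1.87 ± 0.39 and Col12a1 by -0.91 ± 0.25 (limma adjusted p = 0.0181). The call for Col12a1 was lost without UB replicate 1, where the adjusted p of Col12a1 was 0.0776 (limma), without WD replicate 1 (0.057) or without WD replicate 3 (0.0544). Col22a1, a chain of tissue junctions, was at 351 to 449 in the UB and 334 to 699 in the WD and did not pass.

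Collagen IX is a heterotrimer of chains from Col9a1, Col9a2 and Col9a3, best known from cartilage fibrils. Col9a1 had signals of 8058, 7816 and 8713 in the UB and 225, 297 and 284 in the WD. Its UB arrays were all above every array of the other tissues, and its WD signals were all below the 40th percentile of their arrays, where no exact fold can be given. Col9a3 had 3748, 3848 and 3183 in the UB and 865, 620 and 1104 in the WD, a log2 difference of 2.03 ± 0.27. Col9a2 had 1733, 1923 and 1548 in the UB and 1299, 1213 and 1070 in the WD. These arrays did not overlap either, but the log2 difference of 0.52 ± 0.25 did not pass (limma adjusted p = 0.14). Col9a2 did pass with quantile normalization (limma adjusted p = 0.0353) and with median centring (0.00723). The stretch before the annotated start of Col9a1, the member with the largest rise, held none of the motifs searched.
Col9a1, chr9:34081264-34081363, plus strand, bases 100 to 1 before the start: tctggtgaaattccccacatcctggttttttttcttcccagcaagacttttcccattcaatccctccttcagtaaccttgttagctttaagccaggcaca

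Other genes of cartilage matrix were read beside collagen IX. Of 15 such genes listed, 9 were on the array with 1 symbol and 3 were tested. Matn2, a matrilin, rose in the UB against the WD (1.17 ± 0.40), and Hapln1, the hyaluronan link protein (-1.21 ± 0.27), and Sox6, a chondrogenic transcription factor (-1.57 ± 0.24), fell. Acan, which encodes aggrecan, was at 25.5 to 312 in the UB, 206 to 364 in the WD and 140 to 455 in the WD with mesoderm and was not tested. Comp, Matn1, Cnmd, Chad and Ibsp were also below the filter. The summed signal of 8 chondrocyte markers, Col2a1 and Col10a1 among them, was 6354 to 7094 on the UB arrays, 11758 to 13435 on the WD arrays and 12284 to 18487 on those of WD with mesoderm.

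**Figure D2:**
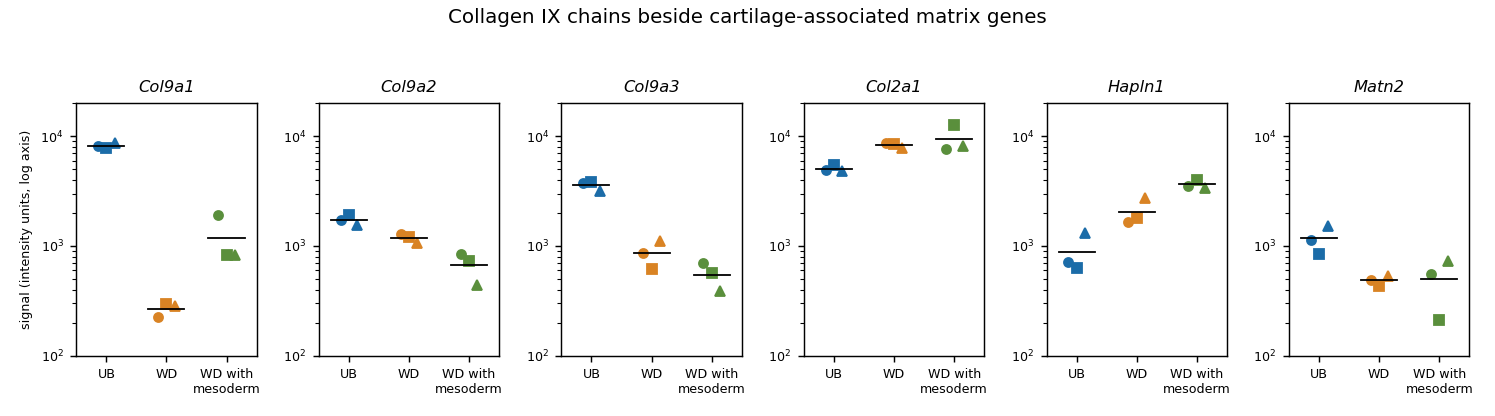
Signal in intensity units (log axis, shared range) of the 3 collagen IX chains and of Col2a1, Hapln1 and Matn2 on each array. Points are arrays (circle, square and triangle for replicates 1, 2 and 3) and lines are means; the UB arrays are highest for Col9a1, Col9a2, Col9a3 and Matn2 and lowest for Col2a1 and Hapln1.

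All tested chains of collagen VI fell in the UB. Col6a3 had 144, 162 and 245 in the UB and 1719, 1501 and 942 in the WD, a log2 difference of -2.62 ± 0.31. Col6a1 had 75.5, 144 and 378 in the UB, the most uneven of the 37 genes there, and 600, 642 and 931 in the WD (-1.82 ± 0.41). Col6a2 differed by -0.997 ± 0.25 (limma adjusted p = 0.0107). The remaining chains, Col6a5 and Col6a6, were below the filter.

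Collagens of the epithelial border and of cell membranes followed. Col7a1, the anchoring fibril collagen, had 99.6, 78.9 and 57.8 in the UB and 798, 1051 and 761 in the WD. Col26a1 had 665, 624 and 449 against 3072, 3936 and 3645, and Col25a1, a transmembrane collagen, 355, 354 and 214 against 1871, 1927 and 788. No UB array reached a WD array for these genes, and their log2 differences were -2.88 ± 0.33, -2.53 ± 0.19 and -2.08 ± 0.36. Col8a2 differed by -1.63 ± 0.22 and the transmembrane Col23a1 by -1.22 ± 0.32, the latter not called without WD replicate 3 (limma adjusted p = 0.0529). Col13a1, a transmembrane collagen of adhesion sites, was at 230 to 360 in the UB and 181 to 536 in the WD and did not pass. Col18a1, the source of endostatin, had 13408, 12579 and 10837 in the UB and 26119, 26712 and 34990 in the WD, a log2 difference of -1.24 ± 0.18.

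Probe sets of Col15a1 went apart between UB and WD. The brighter one had 484, 469 and 416 in the UB against 637, 801 and 903 in the WD (-0.71 ± 0.24, limma adjusted p = 0.0421). The weaker one had 200, 204 and 109 against 68.9, 72.7 and 36.7 (1.03 ± 0.45), higher in the UB but not called. With the mean of both, the difference was 0.16. The call was also lost without any 1 of the 3 UB arrays, WD replicate 2 or 3, or WD with mesoderm replicate 1 or 2, so no direction is given for Col15a1 in that comparison, although it is counted among the 27 lower genes.

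Of the 10 processing genes, 7 fell and 1 rose in the UB against the WD. Pcolce had 351, 307 and 175 in the UB and 5108, 6147 and 5432 in the WD, the widest gap of the group, with a log2 difference of -4.15 ± 0.21. Its signal on UB replicate 3 was below the 40th percentile of that array. P4ha3, a catalytic subunit of prolyl 4-hydroxylase, had 175, 163 and 48.8 against 1865, 2129 and 1587 (-3.53 ± 0.32). Both genes were far below the WD on every UB array. P3h1, a prolyl 3-hydroxylase, differed by -1.65 ± 0.20, the lysyl hydroxylase Plod1 by -1.58 ± 0.18 and P4ha2, another prolyl 4-hydroxylase subunit, by -1.29 ± 0.20. Serpinh1 had 24147, 27080 and 24775 in the UB and 46150, 43322 and 58935 in the WD (-0.95 ± 0.15), and Bmp1 differed by -0.87 ± 0.16. For both of these genes a weaker probe set was not called.

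Other processing genes stayed high in the UB. P4hb, the disulfide isomerase that is the β subunit of prolyl 4-hydroxylase, was at 40036, 42370 and 39435 in the UB and 43811, 40584 and 46232 in the WD. These ranges overlapped and the difference was -0.10 ± 0.11. Plod2, the lysyl hydroxylase of telopeptides, had 6227, 6325 and 6012 in the UB and 4035, 4766 and 4098 in the WD (0.52 ± 0.15, limma adjusted p = 0.0232). The call for Plod2 was lost without any 1 of the 3 UB arrays or WD replicate 1 or 3, at a limma adjusted p of 0.0557 to 0.077. Plod3, which also glycosylates hydroxylysine, differed by -0.36 ± 0.15 and did not pass, although its UB arrays were all below its WD arrays. The stretch before the start of P4ha3, the prolyl 4-hydroxylase subunit that fell most, is shown for its 6 GGGCGG matches, of which 2 overlap.
P4ha3, chr1:164040784-164040863, plus strand, bases 80 to 1 before the start: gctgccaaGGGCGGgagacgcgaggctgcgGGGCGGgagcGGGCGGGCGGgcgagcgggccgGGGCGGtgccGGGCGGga

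**Figure D3:**
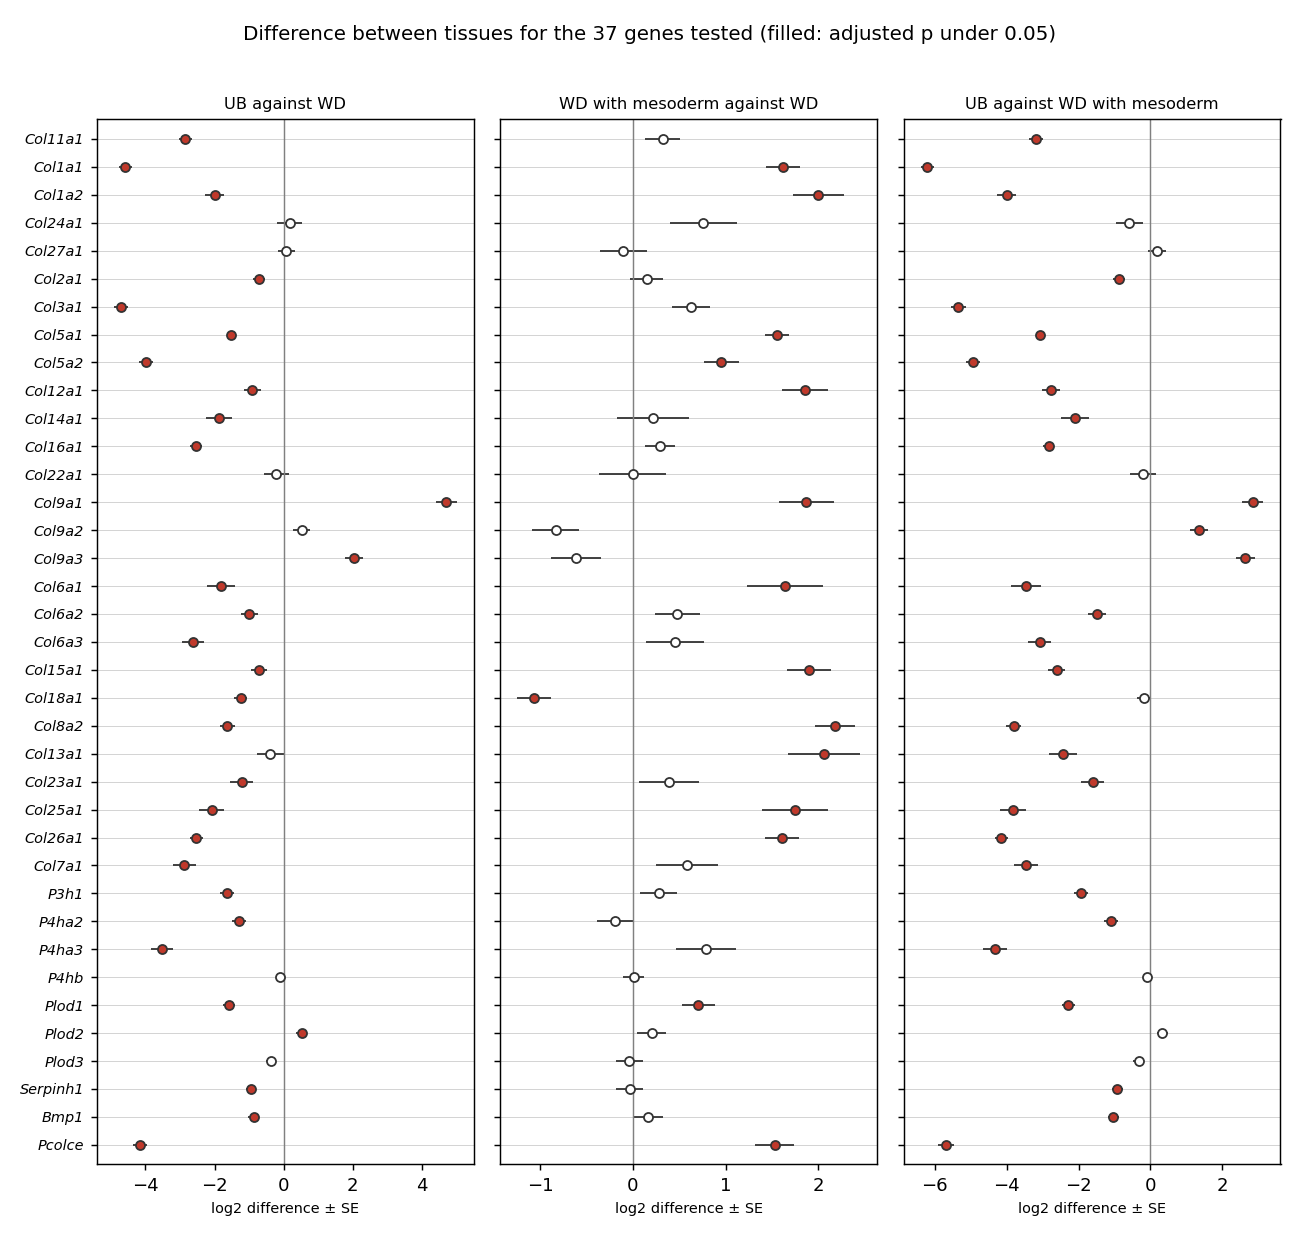
Log2 difference (x axis) with its SE for each of the 37 genes tested (y axis) in the 3 comparisons, each panel with its own x range. Filled points passed the test; the 3 collagen IX chains are the points farthest to the right in the panel of UB against WD with mesoderm, between 1.35 and 2.85.

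The comparison of WD with mesoderm against the WD asks what the attached cells add. Here 14 of the 37 genes rose and 1 fell (Col18a1), and 22 did not pass. Over all genes 14.7% were called, 6.47% higher and 8.24% lower. The arrays with mesoderm lay wholly above those without for 19 of the 37 genes and wholly below for 2, against 15.2% and 17.2% of all genes, 32.4% in all. The median was 0.48 over the 37 genes and -0.01 over all genes. Of 11 mesenchymal markers tested 8 rose and 0 fell, all 9 endothelial markers rose, and of 11 duct epithelial markers 10 fell. The part of these cells in the collagen differences was not tested. Twist2, Meox1, Sox17, Sox7 and Tie1 were below the 40th percentile on every WD array. These markers passed the filter only through other tissues, so their rises are a description. The ratio of the 3′ to the 5′ probe set for beta-actin, which reflects RNA quality, was 2.19 to 4.87 in the WD, 1.47 to 1.92 with mesoderm and 1.48 to 2.30 in the UB. With it as a covariate the calls for Col9a1, Col6a1, Col18a1 and Plod1 were lost.

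The largest rises were in Col8a2 and Col13a1. Col8a2 had 1268, 1226 and 1231 in the WD and 4947, 5101 and 7677 with mesoderm, a log2 difference of 2.18 ± 0.22. Col13a1 had 536, 480 and 181 without and 2029, 1309 and 1749 with mesoderm (2.06 ± 0.39). No array overlapped for either gene. Both probe sets of Col15a1, a multiplexin, rose, by 1.90 ± 0.24 and 3.63 ± 0.45, and its arrays with mesoderm stood at 3210, 3604 and 2348 for the brighter one. Col12a1 (1.86 ± 0.25), Col25a1 (1.75 ± 0.36), Col6a1 (1.64 ± 0.41) and Col26a1 (1.61 ± 0.19) also rose. The call for Col6a1 was lost without WD replicate 1 or 2 or WD with mesoderm replicate 1 or 2, at a limma adjusted p of 0.063 to 0.0723.

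Within the fibrillar group the chains moved by different amounts. Col1a2 rose by 2.00 ± 0.27, Col1a1 by 1.62 ± 0.19, Col5a1 by 1.55 ± 0.13 and Col5a2 by 0.95 ± 0.19. Col3a1 had 91802, 101033 and 78528 with mesoderm, above each WD array, but its difference of 0.63 ± 0.21 did not pass (limma adjusted p = 0.0663). Col3a1 passed after quantile normalization (limma adjusted p = 0.0395), when only these tissues were fitted (0.0323), among the arrays of low spike ratio (0.0351), and without UB replicate 2 (0.0421) or UB replicate 3 (0.0233). Col11a1 (0.33 ± 0.19) and Col2a1 (0.15 ± 0.18) did not pass.

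Among the processing genes, Pcolce rose by 1.53 ± 0.21, to 14802, 17624 and 16038, and Plod1 by 0.71 ± 0.18. The call for Plod1 was lost without WD replicate 2 or WD with mesoderm replicate 1 or 2, at a limma adjusted p of 0.0602 to 0.0872. P4hb (0.01 ± 0.11), Serpinh1 (-0.03 ± 0.15), Plod3 (-0.03 ± 0.15) and P4ha2 (-0.19 ± 0.20) differed by less than their SE. Col18a1 fell by 1.06 ± 0.18 to 11142, 18260 and 13198, with both of its probe sets called. Col9a1 rose from weak WD signals to 1931, 826 and 826 (1.87 ± 0.29, not an exact fold). By contrast, Col9a2 (-0.83 ± 0.25, limma adjusted p = 0.0519) and Col9a3 (-0.61 ± 0.27) did not pass. Col9a2 passed without WD with mesoderm replicate 1 (limma adjusted p = 0.0297), after quantile normalization (0.0425), with the filter at the 60th percentile (0.0477) and when every gene was averaged over its probe sets (0.0401).

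Between UB and WD with mesoderm 27 of the 37 genes were lower in the UB and 3 higher, the chains of collagen IX. Of the markers, 10 of 11 mesenchymal (median -3.55), all 9 endothelial (-4.01), all 5 smooth muscle (-2.90) and all 5 mesothelial ones (-5.28) were lower in the UB, and 9 of 11 duct epithelial markers were higher (0.95). On every UB array Pdgfrb, Twist2, Prrx1, Osr2, Pecam1, Tek, Emcn, Tie1, Sox17, Sox7, Tagln, Bnc1 and Bnc2 were below the 40th percentile. These passed the filter only through other tissues, so their falls are a description. The part of these cell types in the collagen differences was not tested. Over all genes 30.3% were called, 16.6% lower and 13.6% higher. The UB arrays lay wholly below for 29 of the 37 genes and wholly above for 4, against 25.7% and 24.2% of all genes, 49.9% in all, and the medians were -2.29 for the 37 genes and -0.01 for all. This comparison shares its arrays with those before and is not independent of them. The largest differences were in Col1a1 (-6.20 ± 0.19), Pcolce (-5.69 ± 0.21), Col3a1 (-5.34 ± 0.21), Col5a2 (-4.94 ± 0.19), P4ha3 (-4.32 ± 0.32) and Col26a1 (-4.14 ± 0.19). Col9a1, Col9a3 and Col9a2 were higher in the UB by 2.85 ± 0.29, 2.64 ± 0.27 and 1.35 ± 0.25. Col18a1 did not pass (-0.18 ± 0.18), with overlapping arrays. Median centring ended the call for Col2a1 (-0.51) and gave one for Plod2 (0.69).

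Across the comparisons the 37 genes fell into few patterns. In 12, Col1a1, Col1a2, Col5a1, Col5a2, Col6a1, Col8a2, Col12a1, Col15a1, Col25a1, Col26a1, Pcolce and Plod1, the UB was called below the WD and the WD below the WD with mesoderm. For Col15a1 the call between UB and WD holds for 1 of its probe sets only. In 14 the UB was called below both other tissues and these were not called apart. Among the latter were Col3a1, Col11a1, Col16a1, Col7a1, Col6a3 and P4ha3. Only Col18a1 was called highest in the WD, and 5 genes, Col22a1, Col24a1, Col27a1, P4hb and Plod3, were called in no comparison. By group means alone, 26 of 37 genes had the order WD with mesoderm, WD, UB, an order held by 20.6% of all genes.

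Signals of chains that assemble with each other changed unequally. The level of a ratio between different probe sets has no meaning of its own, and only its change between tissues is described. The log2 ratio of Col1a1 to Col1a2 on the same array was -3.02, -3.14 and -2.88 in the UB, -0.81, 0.01 and -0.48 in the WD and -0.95, -0.75 and -0.71 in the WD with mesoderm. The UB arrays were all below the rest. The ratio of Col5a1 to Col5a2 was 0.99, 0.50 and 1.03 in the UB and -1.74, -1.88 and -1.27 in the WD, and here the UB arrays were all above. For Col9a1 to Col9a3 it was 1.10, 1.01 and 1.44 in the UB and -1.75, -0.96 and -1.80 in the WD, while the WD with mesoderm, at 1.41, 0.51 and 1.01, overlapped the UB. The ratio of Col6a1 to Col6a3 overlapped between all 3 tissues. These differences were not tested. The WD signals of Col9a1 and the UB signals of Col6a3 were below the 40th percentile of their arrays. Ratios with them are not exact.

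**Figure D4:**
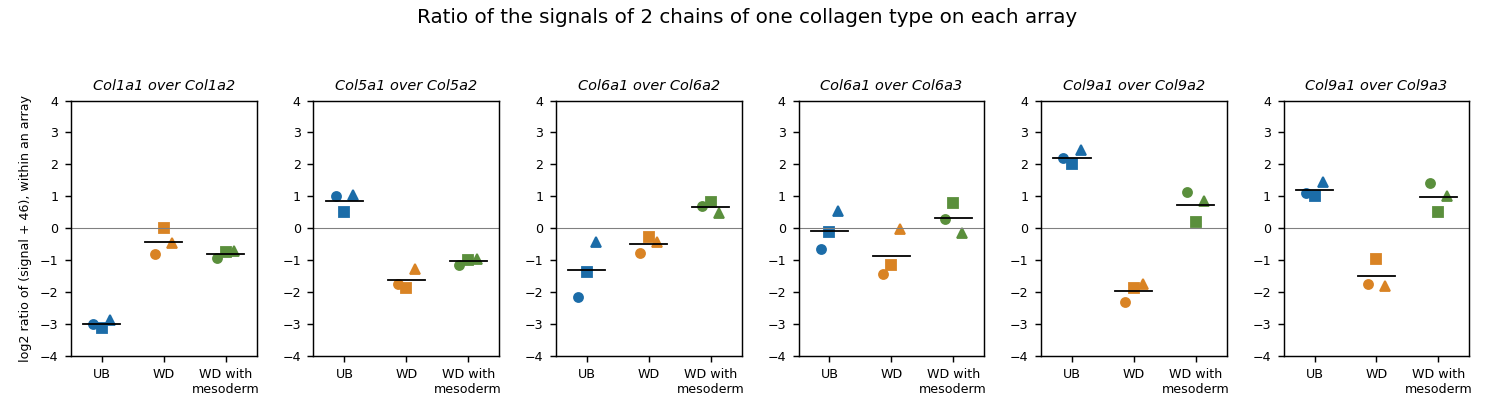
Log2 ratio of the signals, each with 46 added, of chains of the same collagen type within an array (y axis) for 6 pairs in UB, WD and WD with mesoderm. Points are arrays (circle, square and triangle for replicates 1, 2 and 3) and lines are means; for Col1a1 over Col1a2 the UB mean is -3.01 and the WD mean -0.42.

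Collagen IV, the basement membrane collagen, was left out of the selection. Of 4 of its chains tested between UB and WD, Col4a5 fell by 1.43 ± 0.17 and 0 rose. Col4a1 (-0.19 ± 0.19), Col4a2 (-0.35 ± 0.18) and Col4a6 (-0.96 ± 0.35) did not pass. Of all genes, 33.0% were called between UB and WD. The median over the 4 chains was -0.65, against -1.51 over the 27 other collagen chains, a description of lists of unequal size whose difference was not tested.

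Other genes of collagen synthesis and assembly were read from lists written with earlier results of these data known. Between UB and WD, 33.0% of all genes were called, 19.6% lower and 13.3% higher in the UB. Of 13 tested genes of folding, modification and export, 5 fell and 0 rose in the UB against the WD, with a median of -0.31. These were P4ha1 (-0.56 ± 0.17), P3h3 (-1.05 ± 0.15), Fkbp14 (-0.83 ± 0.24), Sec24d (-0.49 ± 0.13) and Creb3l1 (-2.01 ± 0.37), an endoplasmic reticulum stress factor that activates collagen I transcription. All 4 tested lysyl oxidases, which cross-link collagen, fell: Lox (-2.83 ± 0.34), Loxl3 (-2.70 ± 0.29), Loxl1 (-1.51 ± 0.26) and Loxl2 (-1.25 ± 0.15). Of 10 collagen-binding matrix genes 8 fell and 1 rose, the fibulin Fbln2 (0.89 ± 0.17). Of 5 receptors and uptake genes 3 fell, the collagen receptor kinases Ddr2 (-3.60 ± 0.18) and Ddr1 (-1.35 ± 0.12) and the protease Ctsk (-2.20 ± 0.42). Creb3l1, Lox, Loxl3 and Ctsk were below the 40th percentile on every UB array and passed the filter only through other tissues. Their falls are a description. With mesoderm against the WD, 6.47% of all genes were called higher and 8.24% lower. Of the 13 synthesis genes, 0 were called there by limma. In the same comparison Loxl1 (1.39 ± 0.26), Loxl2 (0.61 ± 0.15), Ddr2 (1.03 ± 0.18), Ctsk (1.66 ± 0.42) and 5 of 10 collagen-binding matrix genes rose.

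Some members are neighbours in the GRCr8 gene table, with 0 protein-coding genes between them. Col3a1 and Col5a2 differed between UB and WD by -4.71 ± 0.21 and -3.99 ± 0.19, and Col6a1 and Col6a2 by -1.82 ± 0.41 and -0.997 ± 0.25. Col9a1, with an estimated rise of 4.72 ± 0.29 from weak WD signals (not an exact fold), is next to Col19a1, which was at 8.46 to 50.0 on all arrays.

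Some calls between UB and WD were lost under other settings. Quantile normalization ended those of Col12a1, Col14a1, Col6a2, Col15a1 and Col23a1, and median centring those of Col2a1, Col12a1, Col6a2, Col15a1, Col23a1, Serpinh1 and Bmp1. The beta-actin covariate ended those of Col2a1, Col12a1, Col14a1, Col15a1 and Plod2. The spike ratio separates all UB arrays from all WD arrays, so the third array of WD with mesoderm alone sets the value of a term for it. With this term 16 of the 37 genes were called between UB and WD, 2 higher and 14 lower, all of them among the 30. Over all 20334 probe sets tested, 798 were called with the term and 6073 without it. The genes kept were Col9a1 (5.31 ± 0.51, not an exact fold), Col9a3 (2.67 ± 0.44), Col1a1 (-4.28 ± 0.33), Col3a1 (-4.41 ± 0.37), Col5a1 and Col5a2. Also kept were Col11a1, Col16a1, Col6a3, Col7a1, Col8a2, Col25a1, Col26a1, P3h1, P4ha3 and Pcolce. Calls were lost for Col1a2 (-1.56 ± 0.49, limma adjusted p = 0.114), Col2a1, Col12a1, Col14a1, Col6a1, Col6a2, Col15a1, Col18a1, Col23a1, P4ha2, Plod1, Plod2, Serpinh1 and Bmp1. Col23a1 (-0.49 ± 0.54), Col15a1 (-0.18 ± 0.40), P4ha2 (-0.71 ± 0.31) and Col2a1 (-0.45 ± 0.32) came nearer to 0 by over 1.5 times. Within the 5 arrays of low spike ratio, WD with mesoderm against WD gave 16 calls, 15 of them shared with the fit of all arrays. Over all 20334 probe sets, that fit of 5 arrays gave 1444 calls. Within the 4 arrays of high ratio, UB against WD with mesoderm rests on 1 array with mesoderm. That array has no spread of its own and was assumed to vary like the UB arrays, so the calls are not counted here.

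**Figure D5:**
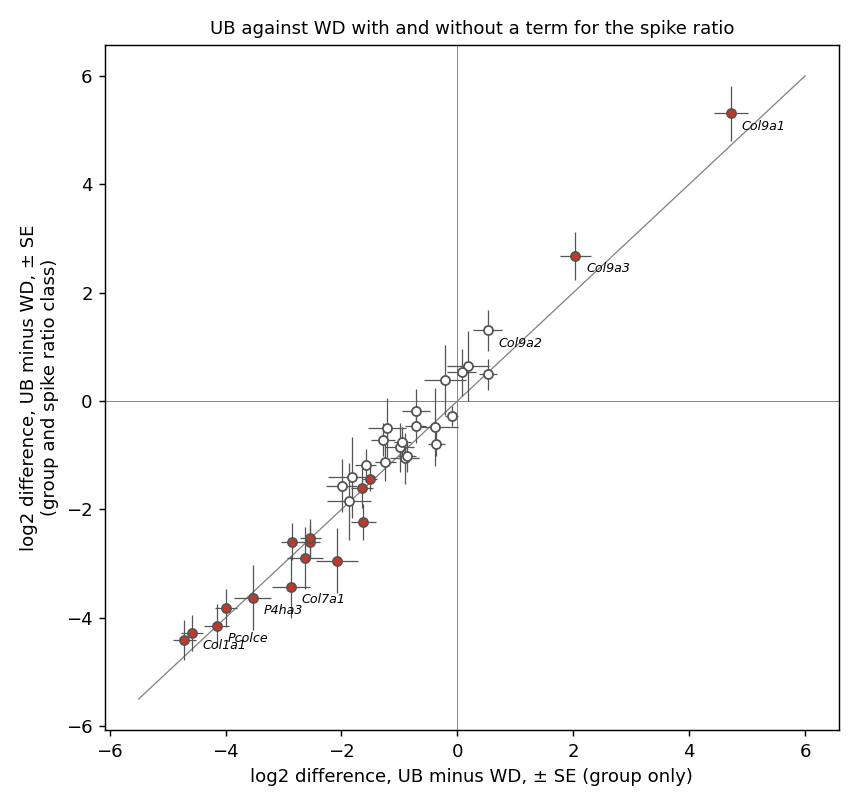
Log2 difference between UB and WD with SE for the 37 genes, fitted with tissue alone (x axis) and with a term for the spike ratio class added (y axis). Filled points, 16 of them, passed the test with the term and the diagonal marks equal values. Col9a1, weak in the WD and so without an exact fold, goes from 4.72 to 5.31 and Col1a1 from -4.58 to -4.28.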

How the data were processed

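Arrays were hybridised with biotin-labelled RNA and summarised with GCOS, per the submitters' processing notes. The sources used here give neither its version nor its algorithm. The deposited table holds an intensity for 31099 probe sets on 9 arrays. From the values, the authors scaled the arrays to equal means without the outer 2% of probe sets, so differences are relative to the other genes of an array. Symbols came from the platform table. The probe set of highest mean log2 signal stands for a gene. Promoter windows are of GRCr8, and the array itself names no build.

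Intensities were taken as log2(intensity + 46), 46 being their 10th percentile, which understates changes of weak genes. With R 4.3.3 and limma 3.58.1, tissue was fitted with a variance trend on 20334 probe sets, 57 control probe sets being left out, with 6 residual and 6.09 prior degrees of freedom. P-values were adjusted by Benjamini-Hochberg over all of them. The p-values measure the spread between pools. The procedure was tested on simulated data, with 100 probe sets raised in the UB by a log2 change of 1 and 100 by 2. Of these, 33% and 76% were recovered between UB and WD, and 6.03% of the calls were false. A gene that did not pass may therefore still differ. Far fewer probe sets were changed there than were called in the data, so these shares may not carry over. Every member could be named. From each other list, up to 4 genes of smallest p and any in a count of 5 or fewer could be. Genes of these lists that passed the filter only through other tissues could be named as well. Members and lists were chosen with earlier results of these data known. A term for arrays with a spike ratio above 2 is among the alternatives. A change of sign was counted only where a fit called the gene. Protein sequences were not used here.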

Additional observations from a re-analysis of the deposited data

How the results depend on the processing

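Counts of called genes stayed within 1.5 times for all settings but one. With the spike ratio term, UB against WD gave 16 calls in place of 30. Over all probe sets the same term gave 798 calls in place of 6073. Leaving out each array in turn gave 26 to 31 calls for UB against WD, 13 to 17 for WD with mesoderm against WD and 30 in every fit for UB against WD with mesoderm. With the mean of a gene's probe sets the difference of Col15a1 between UB and WD was 0.16, the single change of sign in a called gene, because its probe sets differ in sign. Same-numbered arrays correlated from -0.35 to 0.28 in their deviations from the group means, and differently numbered ones from -0.26 to 0.30. With 3 arrays a tissue these deviations are tied to each other, so a link between same-numbered arrays was neither shown nor excluded. The replicate block gave 29, 15 and 30 calls in the order of the comparisons above. Scaling moved the median of all probe sets, UB against WD, from -0.12 to 0.04 with quantile normalization and 0.34 with median centring. The 30 calls became 27 and 24 with these scalings, 4 of them higher in each. Apart from the 2-fold minimum, 16 of the 30 calls for UB against WD held in every setting that tested the gene. So did 11 of the 15 for WD with mesoderm against WD. For UB against WD with mesoderm no such count is given, because 1 setting rests on 1 array with mesoderm. The filter at the 60th percentile tested 30 of the 37, Col7a1 and Col13a1 not among them. Weak signals, such as those of the 9 chains not tested, limit what the arrays can show.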
